A study of Mus musculus with 16 samples.

Results

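Open chromatin was examined at the loci of Cd3g, Cd3d and Cd3e, which encode signalling chains of the T cell receptor complex. The loci of the coreceptor Cd4 and of the coreceptor chains Cd8b1 and Cd8a were examined beside them. The members were the regions of the deposited mm9 list that overlapped 1 of 3 fixed windows by 1 base or more. These windows were chr9:44750000-44840000 for the Cd3 genes, chr6:124780000-124870000 for Cd4 and chr6:71250000-71370000 for the Cd8 genes. They held 43 of the 75363 regions in the list. The list comes from ATAC-seq, an assay in which a transposase inserts sequencing adapters where chromatin is open. The cells were CD4+CD25+ Treg cells, the regulatory T cells that keep other immune cells in check, of C57BL/6 mice. It covers 16 samples from 8 mice in 8 groups of 2. Treg cells came from epididymal visceral adipose tissue (VAT) of 2 mice, injured hindlimb skeletal muscle of 2 mice, and colonic lamina propria of 4 mice, in a group labelled Nrp1p and a group labelled Nrp1n (Nrp1 is a surface receptor). Spleen Treg cells of the same mouse accompanied each tissue sample. The labels give no genotype, age or kind of muscle injury.

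The list carries positions and no value per sample. A listed region may have been open in all tissues or in 1, and in many of the cells or in few. No tissue could be set against its spleen, no replicate error exists for any region, and the sequencing depth of every sample is unknown. The cell identity given by the labels was not checked against marker genes, because no mm9 annotation was used here.

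The CD3 gamma, delta and epsilon chains form, together with the zeta chain, the signalling part of the T cell receptor complex, and all conventional T cells carry them. CD4 and CD8 are coreceptors. CD4 binds MHC class II and is kept on helper and regulatory T cells, whereas CD8, a pair of alpha and beta chains, binds MHC class I and is kept on cytotoxic T cells. Thymocytes pass through a stage with both coreceptors and then silence one of them. The Cd4 gene is controlled by enhancers and by an intronic silencer to which Runx proteins bind, and the Cd8 genes by several enhancers used at different stages. The cells of this series were sorted as CD4 positive, so the Cd4 window was compared with the Cd8b1-Cd8a window, and the Cd3 window served as a locus used by both lineages.

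The start-site sequences of these genes are shown to give the DNA at which their transcription begins and the letters of common T cell motifs in it. RefSeq sequences (build GRCm38.p6, 300 bases, from 250 before to 50 after the start) were found for 4 of the 6 genes, namely Cd3g, Cd3d, Cd3e and Cd8a. Their positions are on another build than the regions and were not set against them, so they do not show whether a region covers them. Capitals mark matches on either strand to 3 short motifs that do not overlap here. One is TGTGGT, letters bound by the Runx family. Another is GGAAG, letters bound by many members of the Ets family, which reads as its reverse complement where the match lies on the other strand. The last is AGATAA, letters bound by the Gata family. The Cd8a sequence lies on the plus strand (GRCm38.p6, chr6:71373177-71373476), Cd3d on the plus strand (chr9:44981536-44981835), Cd3g on the minus strand (chr9:44980382-44980681) and Cd3e on the minus strand (chr9:45009562-45009861). All are written 5′ to 3′ along the gene.
Cd8a: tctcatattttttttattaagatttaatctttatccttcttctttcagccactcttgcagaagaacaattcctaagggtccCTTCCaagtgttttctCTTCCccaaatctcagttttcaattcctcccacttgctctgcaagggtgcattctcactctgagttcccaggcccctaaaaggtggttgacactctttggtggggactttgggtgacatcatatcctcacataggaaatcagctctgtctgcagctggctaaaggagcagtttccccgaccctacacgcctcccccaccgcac
Cd3e: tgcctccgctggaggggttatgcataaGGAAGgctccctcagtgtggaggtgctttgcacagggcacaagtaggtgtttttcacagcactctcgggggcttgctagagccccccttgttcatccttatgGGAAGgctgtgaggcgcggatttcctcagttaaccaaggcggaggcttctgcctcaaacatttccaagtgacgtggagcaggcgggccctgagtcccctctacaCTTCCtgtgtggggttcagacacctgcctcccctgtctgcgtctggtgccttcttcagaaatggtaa
Cd3d: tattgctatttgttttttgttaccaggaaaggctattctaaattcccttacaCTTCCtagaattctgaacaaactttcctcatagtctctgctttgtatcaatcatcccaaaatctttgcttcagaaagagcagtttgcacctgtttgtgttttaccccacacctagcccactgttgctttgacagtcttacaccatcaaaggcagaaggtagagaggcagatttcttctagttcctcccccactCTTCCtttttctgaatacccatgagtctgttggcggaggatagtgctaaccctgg
Cd3g: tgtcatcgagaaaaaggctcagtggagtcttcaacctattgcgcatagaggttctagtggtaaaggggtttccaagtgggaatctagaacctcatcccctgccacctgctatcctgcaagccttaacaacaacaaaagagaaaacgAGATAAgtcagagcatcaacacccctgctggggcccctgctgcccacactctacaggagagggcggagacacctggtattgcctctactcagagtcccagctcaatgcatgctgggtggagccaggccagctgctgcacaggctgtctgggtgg

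Ets letters occurred 3 times in the Cd3e sequence, 2 times in Cd3d, 2 times in Cd8a and 0 times in Cd3g. Of all 32851 RefSeq start-site sequences of this length, 71.4% hold these letters at least once. That share is the background for holding them at all, as Cd3e, Cd3d and Cd8a did. No background was computed for the number of matches in a sequence. Cd3g alone of the 4 held the Gata letters, at base 147 counted from the 5′ end, and 11.2% of all start-site sequences hold them. Runx letters were in 0 of the 4, against 16.8% of all. The dinucleotide CG occurred 8 times in Cd3e, 4 times in Cd3g, 3 times in Cd8a and 1 time in Cd3d, beside a median of 7 over all start-site sequences.

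The Cd4 window held 19 regions in 90 kb and the Cd8b1-Cd8a window held 8 regions in 120 kb. This is 2.11 regions per 10 kb in the Cd4 window and 0.667 in the Cd8 window, a density 3.17 times as high in the Cd4 window. Of the 19 regions, 11 lay within 19.5 kb at the end of higher positions, where other genes follow Cd4 in the GRCm38.p6 gene order. Whether they belong to Cd4 or to a neighbouring gene was not determined. The Cd3g-Cd3d-Cd3e window, with 16 regions in 90 kb, stood close to Cd4 at 1.78 per 10 kb, 2.67 times the Cd8 density. At a matched length of 90 kb, the 4 stretches of the Cd8 window that start 10 kb apart held 4 to 7 regions, all below the 19 of Cd4 and the 16 of Cd3. In bases, 4.33% of the Cd4 window lay in regions (3901 bp), 3.50% of the Cd3 window (3149 bp) and 1.04% of the Cd8 window (1247 bp). The Cd4 value per kilobase was 4.17 times that of Cd8. No test was run, since each locus is 1 window and regions of a window are not replicates of each other.

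**Figure D1:**
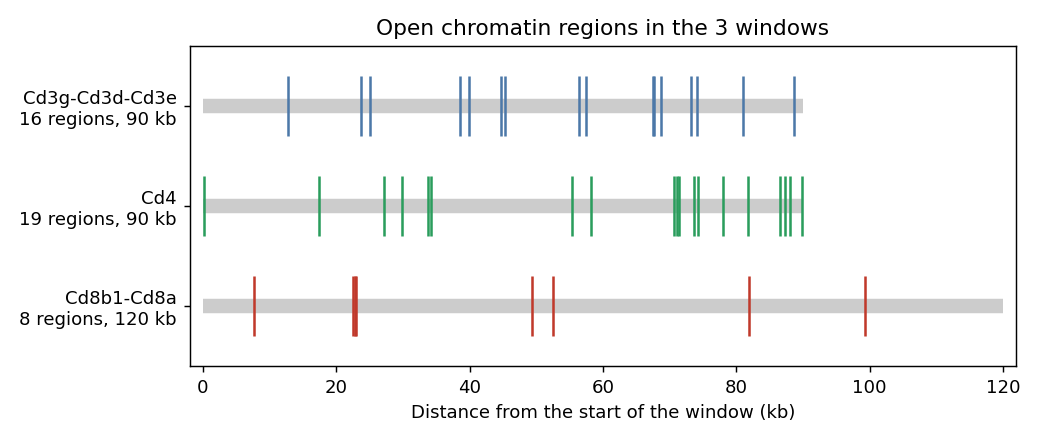
Each vertical line is the centre of 1 open chromatin region, by distance from the start of its window in kb (horizontal axis), for the Cd3g-Cd3d-Cd3e (16 regions), Cd4 (19) and Cd8b1-Cd8a (8) windows; grey bars show the window lengths of 90, 90 and 120 kb. The Cd4 lines crowd toward the right end and the Cd8 lines are few and far apart.

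Set against the whole genome, all 3 windows held more regions than the mean window of their length. The background windows were not matched for genes, whereas the 3 windows were placed on genes. Windows of 90 kb laid end to end over chromosomes 1 to 19 and X held 2.58 ± 4.35 regions (SD, n = 29274 windows), and 55.9% of them were empty. As many as the 19 regions of Cd4 or more were found in 1.11% of these windows, and the 16 regions of Cd3 or more in 2.30%. Windows of 120 kb held 3.43 ± 5.51 regions (SD, n = 21951). The 8 regions of the Cd8 window were reached or exceeded in 18.0% of them. This window lay 0.829 SD above the mean, whereas Cd4 lay 3.77 and Cd3 3.08 SD above theirs. Of the 120 kb windows 52.1% were empty, and the median was 0 at both lengths. With counts so skewed, the shares of windows describe the place of a window better than SD units. Counted over windows with at least 1 region, the shares became 2.52% for Cd4, 5.21% for Cd3 and 37.6% for Cd8. The Cd8 window was thus sparse beside Cd4 and Cd3, and above the genome mean for its length.

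**Figure D2:**
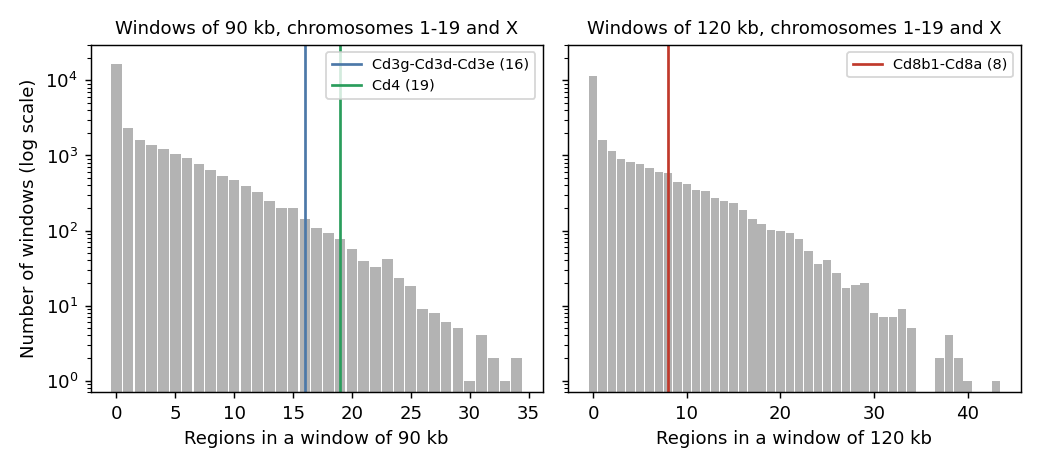
Number of windows (vertical axis, log scale) by the regions they hold (horizontal axis) for all windows of 90 kb (left) and 120 kb (right) on chromosomes 1 to 19 and X. The coloured lines mark Cd3g-Cd3d-Cd3e (16) and Cd4 (19) far in the right tail and Cd8b1-Cd8a (8) nearer the body of the distribution.

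The surroundings of the windows differed as well. The 100 kb before the Cd4 window held 27 regions, or 2.70 per 10 kb, more than the window itself, and the 100 kb after it held 9. Around the Cd3 window there were 11 regions before and 15 after, and around the Cd8 window 4 before and 5 after. The Cd8 window at 0.667 per 10 kb was denser than both its flanks, at 0.400 and 0.500. So was the Cd3 window at 1.78, beside 1.10 and 1.50. The Cd8 contrast rests on 8 regions against 4 and 5, and 3 of the 8 lay within 549 bp. With regions within 100 bp merged, the Cd8 window held 6, and its flanks were not recounted. Genes near the members share these stretches. In the GRCm38.p6 gene order, Cd4 lies between Gpr162, a G protein-coupled receptor gene, and Lag3, which encodes an inhibitory receptor related to CD4 that also binds MHC class II. Cd3g, Cd3d and Cd3e lie side by side between Ube4a, a ubiquitin ligase gene, and Mpzl2, an adhesion molecule gene. Cd8b1 and Cd8a are direct neighbours between Gm1070 and Rmnd5a, a ubiquitin ligase subunit gene. Which regions belong to a member and which to a neighbouring gene was not determined, and their part in the counts was not tested.

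**Figure D3:**
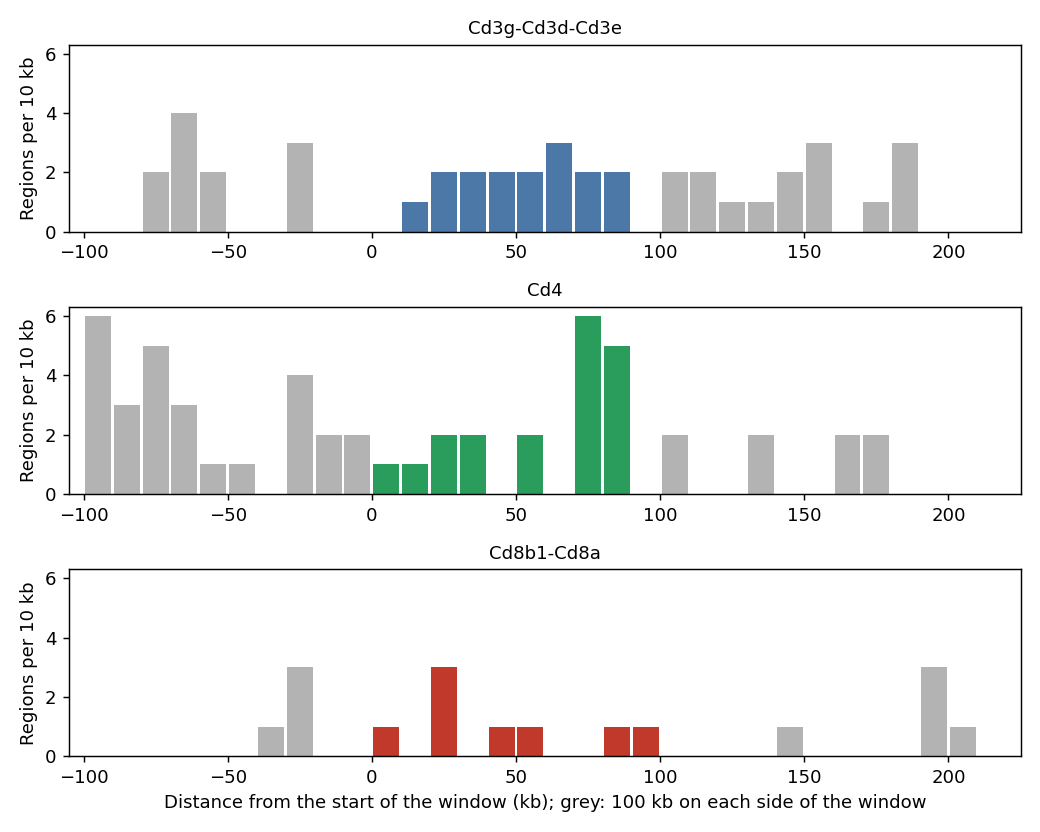
Regions per 10 kb (vertical axis, by region centre) along each window (coloured) and 100 kb on both sides (grey), by distance from the window start in kb (horizontal axis). The Cd4 bars reach 6 and 5 in the last 20 kb of the window. Grey bars before the Cd4 window also reach 6 and 5. No Cd8 bar exceeds 3 and no Cd3 bar inside the window exceeds 3.

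The regions of the Cd4 window, called Cd4 regions here by window only, were gathered at its end of higher positions. In the GRCm38.p6 gene order, Lag3, Ptms and Mlf2 follow Cd4 on that side. Whether the regions at this end belong to Cd4 or to these neighbours was not determined. Regions were linked into runs where neighbours were less than 5 kb apart, and the largest run of the Cd4 window held 11 of its 19 regions within 19.5 kb (chr6:124850519-124870028). Its members began with a close trio of 176, 195 and 94 bp at 124850519, 124851089 and 124851378, separated by gaps of 394 and 94 bp. A pair of 264 and 142 bp followed at 124853590 and 124854250. Next came the second widest region of the 3 windows, 323 bp at 124857828 to 124858150, and a region of 247 bp at 124861627. In this first part of the run, the close groups thus came before these last regions, which lay 3436 and 3476 bp from their nearest neighbours.

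At the far end of that run, 4 regions stood close together. They measured 170 bp (124866483), 277 bp (124867180), 331 bp (124867948 to 124868278) and 229 bp (124869800). The 331 bp region was the widest of all 43, and the 229 bp region was the single one of the 43 that crossed a window edge, ending at 124870028. No further region linked to this run beyond the edge. All 4 regions of the Cd4 window wider than 250 bp, out of the 6 such regions in the 3 windows, lay in this run.

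The rest of the Cd4 window held 8 regions in 70.5 kb. A run of 4 lay at 124807058 to 124814269, with widths of 195, 163, 207 and 182 bp, and its last pair was 197 bp apart. A pair of 211 and 167 bp lay at 124835276 and 124838160, and a single region of 186 bp at 124797362. The region of 170 bp at 124780043 was single within the window only. In the whole list it belonged to a run of 3 that the window edge cut. The longest stretch with no region, 21.0 kb, separated the run of 4 from the pair (124814270 to 124835275). Without its largest run the Cd4 window had 1.13 regions per 10 kb, and the Cd8 window without its own had 0.419. When each run was counted as 1, Cd4 and Cd8 had 5 each, or 0.556 and 0.417 per 10 kb. The difference between the windows then fell from 3.17 to 1.33 times, so the windows differed more in regions per run than in the number of runs. Both of these countings were chosen after seeing the data.

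The 8 regions of the Cd8b1-Cd8a window were few, narrow and scattered. The first, of 140 bp, lay at 71257619 to 71257758. A compact trio followed 14732 bp later, with regions at 71272491 to 71272647 (157 bp), 71272696 to 71272860 (165 bp) and 71272946 to 71273039 (94 bp). The gaps inside the trio were 48 and 85 bp, and its whole span was 549 bp. The gap of 48 bp was the shortest in the 3 windows.

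Past the trio the Cd8 regions stood apart. After 26297 bp came a pair of 130 bp (71299337) and 201 bp (71302375), 2908 bp from each other. The longest stretch with no region in any of the 3 windows, 29.2 kb, followed (71302576 to 71331793). A region of 183 bp at 71331794 to 71331976 and, 17320 bp on, a region of 177 bp at 71349297 to 71349473 ended the window. The first 60 kb of the window held 6 of the 8 regions and the second 60 kb held 2. Only 6 of the 12 stretches of 10 kb in the Cd8 window had a region centre, against 7 of 9 at Cd4 and 8 of 9 at Cd3.

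The Cd3g-Cd3d-Cd3e window was the most evenly filled. It had 7 runs, which began with a single region of 212 bp at 44762602. A pair of 266 and 224 bp lay at 44773590 and 44774941, 1085 bp apart. After the longest stretch without a region in this window, 13.3 kb, came a run of 4 at 44788429 to 44795432. It was made of a pair of equal width, 199 and 199 bp at 44788429 and 44789768, and a pair of 204 and 209 bp at 44794639 and 44795224, 381 bp apart. These 2 pairs were 4672 bp apart.

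Farther on, a pair of 272 and 128 bp lay at 44806310 and 44807398, and 272 bp was the widest of the Cd3 window. The largest run, of 5 regions, spanned 6.78 kb (44817367 to 44824150). It opened with 201 and 150 bp at 44817367 and 44817644, only 76 bp apart, followed by 163 bp at 44818699, 194 bp at 44823061 and 138 bp at 44824013. Single regions of 188 and 202 bp at 44830985 and 44838515 closed the window. In each of the last 7 stretches of 10 kb there were 2 or 3 region centres.

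Width also set the Cd8 regions beside the others. The median width was 161 bp at Cd8 (94 to 201 bp), 195 bp at Cd4 (94 to 331 bp) and 200 bp at Cd3 (128 to 272 bp), beside 191 bp in the list. The list median was reached by 1 of 8 Cd8 regions, 10 of 19 Cd4 regions and 11 of 16 Cd3 regions. Of the 43 regions, 6 were wider than 250 bp, as were 15.8% of the list, with 4 at Cd4, 2 at Cd3 and 0 at Cd8. The widths of the 3 windows overlapped. With regions under the list median left out, 10 regions remained at Cd4 and 1 at Cd8, and the ratio of densities rose to 13.3, which rests on that 1 region.

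Some widths of the list are far more frequent than their neighbours, a property of the list whose source is not given in the sources used here. Among widths up to 150 bp, the range searched, there are 12 such widths, and each holds over 5 times as many regions as the typical width up to 8 bp away (the median over those widths, taken as at least 10). Regions of these widths numbered 8 of the 43 (18.6%), beside 14.2% of the list. They were 3 of 8 at Cd8 (140, 94 and 130 bp), 3 of 16 at Cd3 (128, 150 and 138 bp) and 2 of 19 at Cd4 (94 and 142 bp). Their part in the Cd8 widths was not tested. Without them 5 regions remained at Cd8, 17 at Cd4 and 13 at Cd3, and the Cd4 density was 4.53 times that of Cd8.

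The median gap between neighbours was shortest at Cd4 and longest at Cd8, although the shortest single gap lay at Cd8. The median was 2635 bp at Cd4 (94 to 21006 bp), 4199 bp at Cd3 (76 to 13264 bp) and 14732 bp at Cd8 (48 to 29218 bp), beside 5200.5 bp over the list. Of the 43 regions, 17 (39.5%) had another region less than 500 bp away, close to the background of 38.7% of the list. These were 10 of 19 at Cd4, 4 of 16 at Cd3 and 3 of 8 at Cd8, the last being the trio. Less than 5 kb away there was another region for 36 of 43, against a background of 73.0%, with 18 of 19 at Cd4, 13 of 16 at Cd3 and 5 of 8 at Cd8. The first region of the Cd4 window counted here through a neighbour outside the window, 352 bp away.

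**Figure D4:**
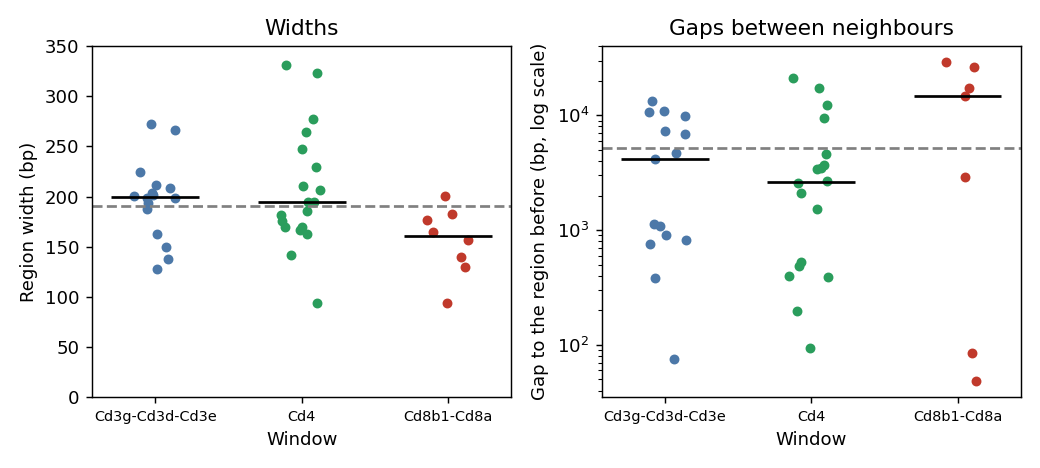
Width of each region in bp (left) and gap to the region before it in bp (right, log scale) in the Cd3g-Cd3d-Cd3e, Cd4 and Cd8b1-Cd8a windows; points are regions or gaps, spread sideways for sight, black lines are window medians and dashed lines the medians of the whole list (191 bp and 5200.5 bp). Cd8 widths sit between 94 and 201 bp, while Cd4 widths reach 331 bp.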

How the data were processed

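ATAC-seq was done on 16 Treg samples from 8 mice. The authors deposited 1 BED file for the series, used here. Per the file headers, its 3 columns are chromosome, start and end (in bp), and 0 columns belong to single samples. It has no count, score or signal. Tools named by the submitters' processing notes, without role or setting, are HOMER 4.6, Picard 1.130, SAMtools 1.3, Bowtie2 2.2.4 and cutadapt 1.8.3, and the build is mm9. The sources used here do not give the peak threshold, a shift of cut positions or the way samples were combined; these steps decide which regions are listed.

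Starts were raised by 1 base, so positions are 1-based. Windows, members and lists were chosen with earlier results of these data known. A region belonged to a window when at least 1 base overlapped. Gaps ran from the end of one region to the start of the next. Background windows were laid end to end from the start of each of 20 chromosomes to the end of its last region. All regions of the windows could be named, and genes were the 6 members and their nearest protein-coding neighbours in the RefSeq table. Counting functions were tested on simulated data. Python 3.11.15, NumPy 2.4.6, pandas 2.3.3 and matplotlib 3.10.9 were used. Alternatives changed the overlap rule, window edges, merging, width limits, links and background windows. The planned search for motifs in regions and the comparison of tissues with spleens were not run, as neither an mm9 sequence nor values per sample were used here.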

Additional observations from a re-analysis of the deposited data

How the results depend on the processing

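No paired analysis was possible because positions pooled over the series carry no sample values, and leaving out replicates was not possible either. Of 48 values under alternatives, 37 stayed within 1.5 times the reported value and 11 did not. A change of direction was defined only for the ratio of Cd4 to Cd8 density, as the other values are counts, shares or sizes. The Cd4 density stayed above that of Cd8 in every alternative run, at 2.65 times with windows shortened by 10 kb at each end and 4.00 times with regions within 100 bp merged. It was 1.33 times with each run counted as 1, chosen after seeing the data, and 13.3 times with only regions of median width or wider, which left 10 regions at Cd4 and 1 at Cd8. Without the over-represented widths, 5 regions remained at Cd8. Among windows with at least 1 region, the shares with as many regions or more were 2.52% for Cd4, 5.21% for Cd3 and 37.6% for Cd8, as empty windows leave the background. The largest run held 3 regions at Cd3 and 5 at Cd4 with links under 2.5 kb, and 9 at Cd3 with links under 10 kb. Since depth is unknown, a stretch with no region cannot be taken as closed chromatin.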
